A study of Drosophila melanogaster with 2 samples.

Results

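The 73 protein-coding genes of Drosophila melanogaster whose symbols begin with mRpL or mRpS followed by a digit, the genes of the mitochondrial ribosomal proteins, were examined for occupancy by the product of CG15812, a factor that the labels call pfk. They are 73 of 13945 protein-coding genes in the Ensembl annotation, and the rule that picks them uses their symbols alone. Occupancy was measured by chromatin immunoprecipitation followed by sequencing (ChIP-seq) in whole embryos of mixed sex collected over 0 to 24 h, whose CG15812 protein carries GFP at its C terminus from a transgene. The 2 samples are biological replicates 1 and 2 of this single group, so no treated and untreated embryos were compared. A free-text label calls both samples an input control, whereas their assay and antibody entries describe immunoprecipitated material, and they were treated as such here. All cell types of the embryo are mixed in these samples, and sites bound in few cells cannot be told apart from sites bound weakly in many.

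Mitochondrial ribosomes translate the few proteins that the mitochondrial genome encodes, all of them components of oxidative phosphorylation. Their RNA comes from mitochondrial DNA, but every ribosomal protein is encoded in the nucleus, made in the cytoplasm and imported. The mRpL genes encode proteins of the large subunit, which forms peptide bonds, and the mRpS genes those of the small subunit, which decodes the messenger RNA. Some have bacterial counterparts of the same number and others are found in mitochondria alone.

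For each gene, the region of highest signal whose summit was at most 1 kb from an annotated transcription start was taken from each of 4 deposited lists. The first lists 2886 peaks kept by the authors for agreement between replicates, by irreproducible discovery rate (IDR). The pooled list and the lists of the 2 replicates hold 30000 regions each and include background. The signal is the authors' own region score, and sequencing depth is unknown. Genes with such a summit in the IDR list are called bound. With 2 replicates, both values are given in place of a standard deviation.

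The sequences at 7 of the 14 bound members show what the summits of this gene group look like and which of the searched motifs they hold. Each line gives up to 50 bases to either side of the IDR summit on the plus strand of dm6, from the RefSeq Release 6 assembly, clipped at annotated exons. Capitals mark any of the 9 motifs searched, on either strand; their letters are given with the motif counts. The windows lie at chr2L:10386266-10386366 for mRpS7, chrX:15760748-15760848 for mRpL3, chr3R:15229479-15229579 for mRpS10, chr2L:13835394-13835494 for mRpS23, chr3L:11120062-11120162 for mRpL2, chr2L:4945485-4945578 for mRpL24 and chr2L:4850455-4850555 for mRpS2.
mRpS7: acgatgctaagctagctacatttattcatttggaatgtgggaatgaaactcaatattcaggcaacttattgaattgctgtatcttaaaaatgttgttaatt
mRpL3: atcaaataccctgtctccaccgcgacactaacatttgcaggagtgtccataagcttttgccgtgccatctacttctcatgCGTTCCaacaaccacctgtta
mRpS10: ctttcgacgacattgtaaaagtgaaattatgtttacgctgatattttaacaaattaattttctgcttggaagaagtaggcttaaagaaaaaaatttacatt
mRpS23: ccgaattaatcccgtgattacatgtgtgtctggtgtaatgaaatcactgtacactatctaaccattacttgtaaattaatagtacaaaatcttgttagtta
mRpL2: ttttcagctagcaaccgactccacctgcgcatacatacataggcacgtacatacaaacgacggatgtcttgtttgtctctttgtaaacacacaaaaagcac
mRpL24: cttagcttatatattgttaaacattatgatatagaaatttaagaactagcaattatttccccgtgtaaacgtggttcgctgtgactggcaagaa
mRpS2: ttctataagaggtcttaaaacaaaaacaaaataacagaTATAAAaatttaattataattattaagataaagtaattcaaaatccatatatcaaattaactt
The window of mRpL3 holds CGTTCC, the reverse complement of GGAACG, and that of mRpS2 holds TATAAA, the TATA box letters. None of the 9 motifs is in the other 5 windows.

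Of the 73 genes, 14 were bound (19.2%, 95% Wilson interval 11.8 to 29.7%), against 16.0% of all protein-coding genes (2225 of 13945). The share of all genes lies inside the interval of the members, so their count is near the background. Bound members were 8 of 47 large subunit genes (17.0%, interval 8.89 to 30.1%) and 6 of 26 small subunit genes (23.1%, interval 11.0 to 42.1%), and these intervals overlap widely. With the 1443 IDR peaks of highest signal alone, 9 members were bound, against 8.26% of all genes. The median IDR signal was 290 at the 14 bound members and 206 at all bound genes.

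**Figure D1:**
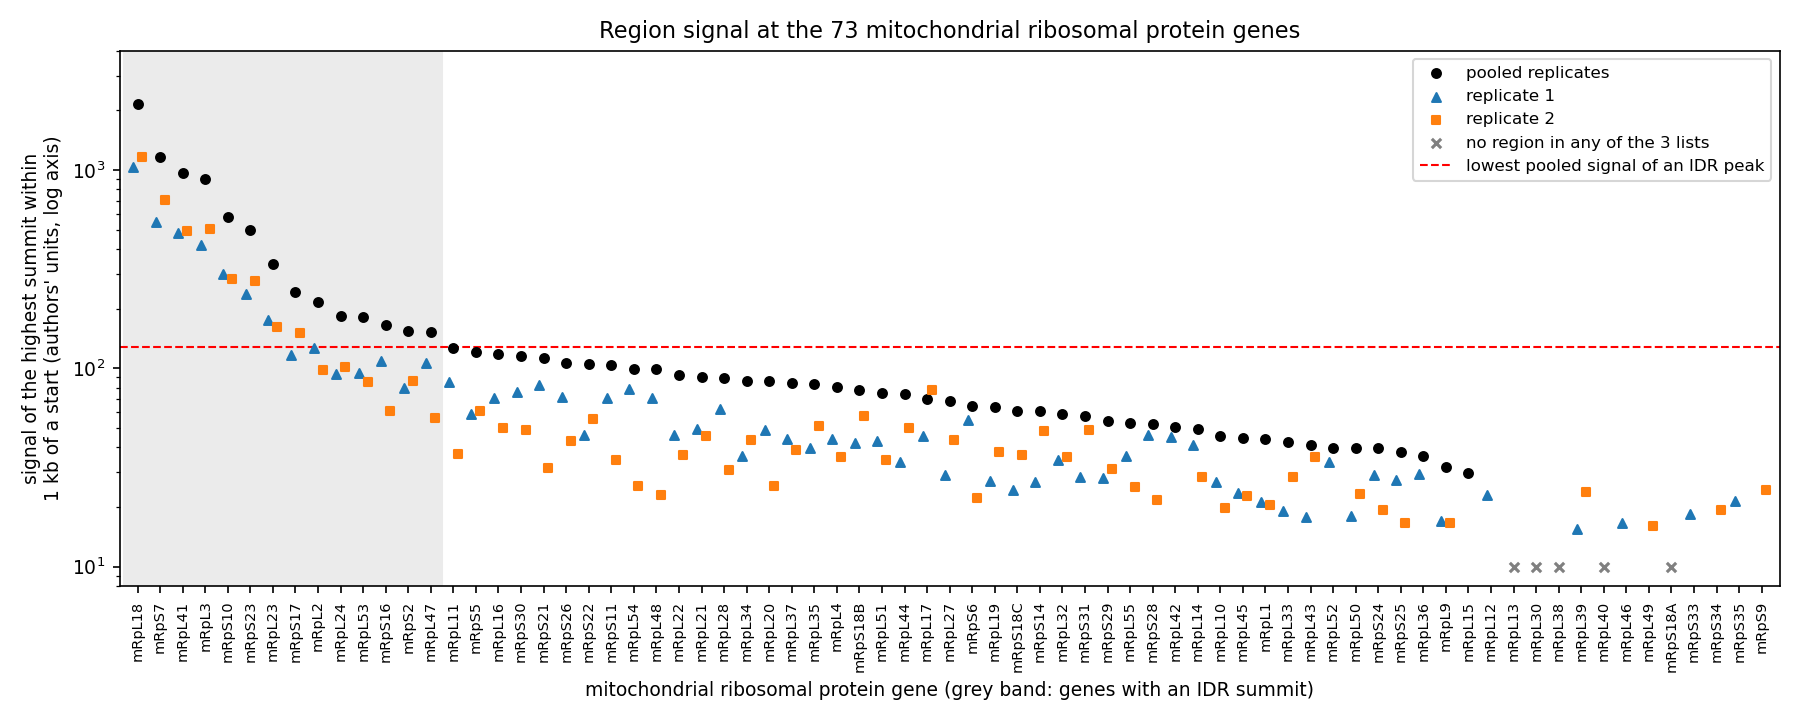
Signal of the highest summit within 1 kb of a start (authors' units, log axis) at each of the 73 genes, ordered by pooled signal, for the pooled replicates (circles), replicate 1 (triangles) and replicate 2 (squares). The 14 genes in the grey band have an IDR summit and pooled signals from 152 to 2154, the dashed line marks 128, the lowest signal of an IDR peak, and crosses at the bottom of the axis mark the 5 genes with no region in any of the 3 lists.

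Among large subunit genes the highest signals were at mRpL18 and mRpL41. The mRpL18 protein is the counterpart of the bacterial protein that binds 5S ribosomal RNA, and its gene (FBgn0026741, arm 2R, 12756434 to 12757173, plus strand) had signals of 1031 in replicate 1, 1166 in replicate 2 and 2154 after pooling, rank 148. Its called region had a second IDR summit of signal 662, 211 bp nearer to the gene. At mRpL41 (FBgn0034001, arm 2R, 15217024 to 15217617, minus strand) the signals were 483 in replicate 1, 493 in replicate 2 and 967 after pooling. Both replicates were close to each other at these genes.

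mRpL3 and mRpL2 encode counterparts of bacterial proteins next to the centre of peptide bond formation. mRpL3 (FBgn0030686, X, 15761248 to 15762663, plus strand) had signals of 420 in replicate 1, 505 in replicate 2 and 902 after pooling. Its called region had a second IDR summit of signal 377, 201 bp nearer to the gene. It was 1 bound member of 11 on X, where 14.8% of all protein-coding genes were bound. mRpL2 (FBgn0036135, arm 3L, 11120847 to 11122041, plus strand) had 127 in replicate 1, 98.6 in replicate 2 and 216 after pooling. The mRpL2 summit was the farthest of the 14 from its gene, 735 bp upstream of the start and inside an intron of FoxK.

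mRpL23 and mRpL24 encode large subunit proteins with bacterial counterparts. mRpL23 (FBgn0035335, arm 3L, 2372844 to 2373704, minus strand) had signals of 175 in replicate 1, 161 in replicate 2 and 337 after pooling. Its summit lay 48 bp downstream of the nearest of its 3 starts, in its own untranslated exon, and it was the only summit of the 14 that was not upstream. mRpL24 (FBgn0031651, arm 2L, 4944256 to 4945361, minus strand) had 93.4 in replicate 1, 102 in replicate 2 and 184 after pooling.

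The last bound genes of the large subunit were mRpL53 and mRpL47. mRpL53 (FBgn0050481, arm 2R, 13954195 to 13955664, plus strand), whose product is specific to mitochondrial ribosomes, had 94.4 in replicate 1, 85.1 in replicate 2 and 182 after pooling. mRpL47 (FBgn0014023, arm 3R, 9514822 to 9515908, minus strand) had 107 in replicate 1, 56.1 in replicate 2 and 152 after pooling. It ranked 1597 in replicate 1 and 3398 in replicate 2, the lowest of the bound members in replicate 2.

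Among small subunit genes mRpS7 was highest, which encodes the counterpart of a bacterial protein of the small subunit head. mRpS7 (FBgn0032236, arm 2L, 10386662 to 10387652, plus strand) had signals of 547 in replicate 1, 709 in replicate 2 and 1168 after pooling. Its called region held a second IDR summit of nearly the same height, with a signal of 1021, 205 bp nearer to the gene. The replicate 2 summit lay 143 bp from the IDR summit, between both maxima.

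mRpS10 and mRpS23 followed. mRpS10 (FBgn0038307, arm 3R, 15229665 to 15230516, plus strand), the counterpart of a bacterial small subunit protein, had 298 in replicate 1, 282 in replicate 2 and 580 after pooling. mRpS23 (FBgn0260407, arm 2L, 13834250 to 13835072, minus strand), whose protein belongs to mitochondrial ribosomes alone, had 236 in replicate 1, 276 in replicate 2 and 501 after pooling. The replicates differed little at both.

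mRpS17, mRpS16 and mRpS2, all with bacterial counterparts of the same number, had weaker peaks. mRpS17 (FBgn0034986, arm 2R, 24173665 to 24174441, minus strand) had 117 in replicate 1, 150.5 in replicate 2 and 243 after pooling, although the replicate 2 summit nearest to the IDR summit was another one, of signal 87.8. mRpS16 (FBgn0033907, arm 2R, 14172986 to 14173596, minus strand) had 109 in replicate 1, 60.7 in replicate 2 and 166 after pooling. At mRpS2 (FBgn0031639, arm 2L, 4849439 to 4850419, minus strand) the values were 79.9 in replicate 1, 86.3 in replicate 2 and 154 after pooling. Replicate 2 was lower at mRpS16, and at mRpS17 the order of the replicates depended on which replicate 2 summit was taken.

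Each of the 14 summits was shared with a neighbour. At 14 of 14 bound members another protein-coding gene had a start within 1 kb of the summit, against 1230 of 2225 bound protein-coding genes (55.3%). At 11 of the 14 (78.6%) the start of the other gene was nearer to the summit than that of the member, against 600 of 2225 bound genes (27.0%). No test of this difference was made. A bound gene with no other start within 1 kb of its summit cannot count here, so the 600 all lie among the 1230. When each IDR summit was given to its nearest protein-coding start alone, 5 of the 73 members remained bound, against 12.1% of all genes. The replicates were also read at the summit nearest to each IDR summit, which need not be the highest. The count nearer to another gene was then 11 in replicate 1 and 10 in replicate 2, and 9 genes were the same in all 3 sets.

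The neighbours have varied functions. The mRpS7 summit was 54 bp from a start of Cdk1, the kinase that drives entry into mitosis, and 346 bp from that of mRpS7. The mRpL3 summit was 65 bp from a start of Graf and 450 bp from that of mRpL3. The mRpS23 summit was 120 bp from CenG1A, a GTPase-activating protein gene, and 372 bp from mRpS23. At mRpS7 the other summits were less one-sided: the replicate 2 summit was 203 bp from mRpS7 and 197 bp from Cdk1, and the second IDR summit was 141 bp from mRpS7 and 259 bp from Cdk1. The second IDR summit at mRpL3 was 249 bp from mRpL3 and 266 bp from Graf.

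The mRpS17 summit was 88 bp from Nop60B, the pseudouridine synthase gene of ribosomal RNA modification, and 348 bp from mRpS17. The mRpL24 summit was 44 bp from betaggt-I, a subunit gene of a protein prenyltransferase, and 174 bp from mRpL24. At mRpL18 the neighbour was Taz, the tafazzin gene of mitochondrial cardiolipin remodelling. The mRpL18 summit lay in an intron of Taz, 437 bp from a start of that gene and 594 bp from mRpL18. The second IDR summit at mRpL18 was 383 bp from mRpL18 and 363 bp from Taz. The FoxK start, of a forkhead transcription factor gene, was 299 bp from the mRpL2 summit, and FoxK had a higher IDR summit elsewhere within 1 kb of its starts, so it shares this peak without it being its highest.

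In other pairs the distances to both starts were closer to each other. The mRpS10 summit was 121 bp from Art3, an arginine methyltransferase gene, and 136 bp from mRpS10, and from the replicate 2 summit mRpS10 was the nearer. The mRpL53 summit was 79 bp from AGO1, the microRNA Argonaute gene, and 91 bp from mRpL53, whose start it shares with CG33155. The mRpS16 summit was 36 bp from cg, which encodes the zinc finger protein Combgap, and 61 bp from mRpS16, again with the order turned round in replicate 2. At mRpL47 the summit was 24 bp from a start common to Kdm3, a histone demethylase gene, and CG8176, and 75 bp from mRpL47.

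The member was the nearer gene at mRpL41, mRpL23 and mRpS2. The mRpL41 summit was 123 bp from mRpL41 and 639 bp from CG8079, the clearest case among protein-coding starts of a summit at the member itself. It also lay 455 bp downstream of a start of the non-coding gene lncRNA:CR44463, on the same strand as mRpL41. The mRpL23 summit was 48 bp from mRpL23 and 98 bp from CG9004. The mRpS2 summit was 86 bp from mRpS2 and 136 bp from Mon1, a gene of endosome maturation, but from the replicate 2 summit Mon1 was nearer, at 61 bp against 161 bp.

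**Figure D2:**
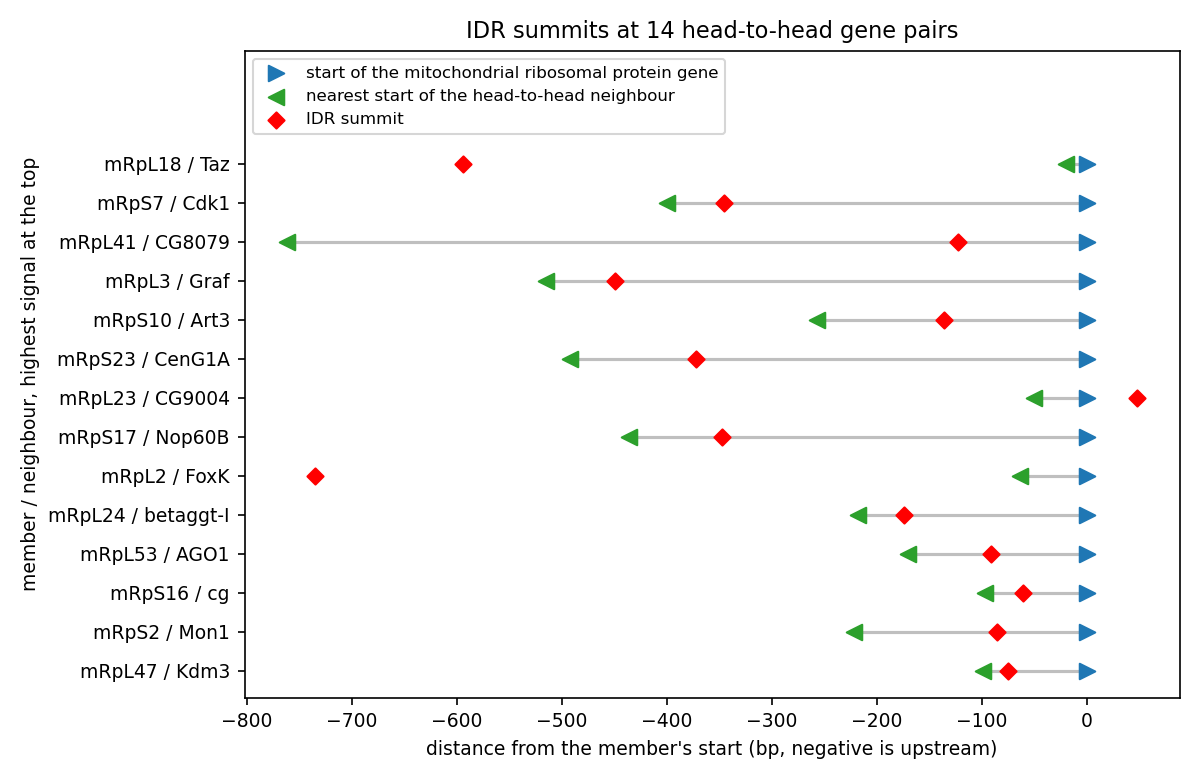
Position of the IDR summit (diamonds) and of the head-to-head neighbour's start nearest to the member (left-pointing triangles) relative to the start of each of the 14 bound members that is nearest to the summit (right-pointing triangles at 0), in bp, with the highest signal at the top. The summit lies between both starts in 11 pairs and outside them at mRpL18, mRpL23 and mRpL2.

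Each of the 14 bound members had a protein-coding neighbour head to head, on the opposite strand and with a start within 1 kb upstream, while CG33155 at mRpL53 lies on the same strand as the member. That arrangement, read from the annotation alone, was present at 58 of the 73 members (79.5%) and at 5052 of 13945 protein-coding genes (36.2%). Within it 14 of 58 members were bound (24.1%, Wilson interval 15 to 36.5%), beside 1244 of 5052 of all such genes (24.6%). Of the 15 members with no such neighbour, 0 were bound (interval 0 to 20.4%), beside 981 of 8893 genes (11.0%). Within the arrangement, the members were thus bound at about the share of other genes. The median separation of the starts was 283 bp at members and 298 bp at all head-to-head genes. At each of the 44 unbound members of such pairs the partner was not bound either, which the closeness of the starts largely fixes.

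**Figure D3:**
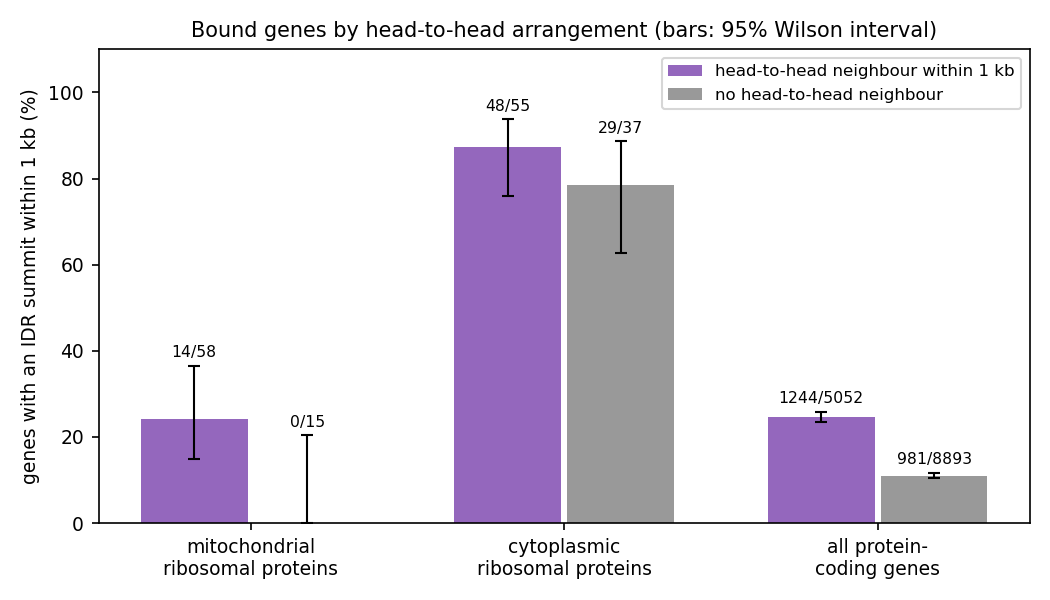
Share of genes that were bound (%), for genes with a head-to-head neighbour within 1 kb (purple) and without (grey), among mitochondrial ribosomal protein genes, cytoplasmic ribosomal protein genes and all protein-coding genes, with 95% Wilson intervals and counts above the bars. The mitochondrial genes with such a neighbour stand at 24.1%, beside 24.6% for all genes with one.

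Most of the unbound members still had weak regions. In the pooled list 60 of 73 members (82.2%) had a summit within 1 kb of a start, against 63.2% of all protein-coding genes. Among those with a head-to-head neighbour the shares were 53 of 58 (91.4%) and 4132 of 5052 (81.8%), and among those without one 7 of 15 (46.7%) and 4677 of 8893 (52.6%). The 46 unbound members with a pooled summit ranged from 29.8 to 127 in signal, with a median of 66.8, and 8 of them reached 100.

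mRpL11, whose bacterial counterpart lies where translation factors bind the large subunit, stood just outside the IDR list. It had a pooled signal of 127.0, and the lowest IDR peak had 127.8. Its signal was 85.5 in replicate 1 and 36.9 in replicate 2, ranks 2255 and 6978. Replicate 1 was the higher one there, and also at mRpL16, mRpS30, mRpS21, mRpS26 and mRpS11. mRpL16 had 70.9 in replicate 1, 50.1 in replicate 2 and 118 after pooling. mRpS30 had 75.8 in replicate 1, 48.8 in replicate 2 and 116 after pooling. mRpS21, the counterpart of a small bacterial small subunit protein, had 82.5 in replicate 1 and 31.4 in replicate 2, with 113 after pooling, the widest gap among these genes. mRpS26 had 71.8 in replicate 1, 42.8 in replicate 2 and 106 after pooling. mRpS11 had 71.0 in replicate 1, 34.4 in replicate 2 and 104 after pooling. Replicate 2 was the higher at the other two of the 8. mRpS5 had 58.6 in replicate 1, 61.3 in replicate 2 and 121 after pooling, and mRpS22 had 46.3 in replicate 1, 55.7 in replicate 2 and 106 after pooling.

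The lowest pooled signals belonged to mRpL15 (29.8), mRpL9 (31.8) and mRpL36 (36.2), near the lowest value of that list, 26.5. The remaining 13 members had no pooled summit. Of these, mRpL39 had one in both replicates, mRpL12, mRpL46, mRpS33 and mRpS35 in replicate 1 alone, and mRpL49, mRpS34 and mRpS9 in replicate 2 alone. None of the 3 lists held a summit for mRpL13, mRpL30, mRpL38, mRpL40 and mRpS18A. A missing entry means that no region there was among the 30000 listed, not that the protein was absent.

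With the replicate summit nearest to each of the 14 bound summits (87.8 in replicate 2 at mRpS17), the replicates differed by a median of 0.026 log2 (replicate 1 over replicate 2), with 7 genes higher in either replicate, and the range ran from -0.37 at mRpS7 to 0.93 at mRpL47. Across 2860 IDR peaks the median was 0.21 log2 with an SD of 0.54, and 70.6% were higher in replicate 1. mRpL47 and mRpS16 (0.85) were the members with the widest difference. Among the 2886 regions of highest signal, replicate 1 held a summit for 18 members (against 16.2% of all protein-coding genes) and replicate 2 for 13 (against 15.3%), and 12 members were in both (66.7% of those of replicate 1 and 92.3% of those of replicate 2). All 14 bound members were among the 18, and all but mRpL47 and mRpS16 among the 13.

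The bound summits lay upstream of the member's start in 13 of 14 cases (92.9%), against 79.0% of all bound protein-coding genes, at a median of -155 bp against -77 bp. They lay over 300 bp from it in 6 of 14 (42.9%) against 26.7%. All 14 members had a head-to-head neighbour, beside 1244 of the 2225 bound genes, and 11 of the 14 summits lay between both starts. A summit there is upstream of both genes, and these shares were not compared among head-to-head genes alone. Of the 14, 10 lay outside every protein-coding gene, and non-coding genes were not considered for this. Those at mRpL18, mRpL2 and mRpL53 lay in introns of the neighbours Taz, FoxK and AGO1, and that at mRpL23 lay in its own exon. The windows of 50 bp to each side had a median G+C content of 32.7% (range 15.8 to 57.4%), beside 43.6% at 684 highest summits of head-to-head genes and 44.6% at 2045 IDR summits within 1 kb of a start.

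GGAACG, on either strand, was within 50 bp of 2 of 14 member summits (14.3%), those of mRpL18 and mRpL3, and of 282 of 2045 promoter summits (13.8%). TATAAA was within 50 bp at mRpL18, mRpL23 and mRpS2 (21.4% against 11.9%), and GGTCACAC, the motif 1 element bound by M1BP, at mRpS16 (7.14% against 2.74%). The DNA replication-related element TATCGATA, the E-box letters CACGTG and CAGCTG, the GAGA element GAGAGAG, the Ets letters CCGGAA and the NRF-1 letters GCATGCGC were at none of the 14. At 2045 promoter summits these 6 were found in 3.33, 1.61, 7.92, 4.74, 4.99 and 0.636%.

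In the promoters themselves, taken as 250 bases before to 50 after the start of the gene record, CAGCTG had the widest difference between members and all genes of the 9 motifs. It was present in 40 of 73 member promoters (54.8%) and in 2463 of 13945 protein-coding promoters (17.7%). The share was 53.4% at members with a head-to-head neighbour, beside 22.0% of all head-to-head genes, and 60.0% at the 15 members without one. Bound members had it in 9 of 14 promoters (64.3%) and unbound ones in 31 of 59 (52.5%). It was in 27 of 47 large subunit and 13 of 26 small subunit promoters, and in 9 of 92 of cytoplasmic ribosomal protein genes (9.78%). Its copies lay at a median of 5 bp downstream of the start in members and 48 bp upstream (-48) in all promoters. No test of these differences was made.

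The copy nearest to the start is shown for 5 bound members, so that the copies shown lie near the start follows from this choice. Each line is 30 bases on the strand of the gene, with CAGCTG in capitals, from the same assembly, at chr3L:2373715-2373744 (minus strand) for mRpL23, chr3L:11120845-11120874 (plus) for mRpL2, chr2L:4945324-4945353 (minus) for mRpL24, chr2L:4850413-4850442 (minus) for mRpS2 and chr3R:9515873-9515902 (minus) for mRpL47.
mRpL23: gtggttgacaatCAGCTGtttaaaacaagt
mRpL2: aacgccgcgtaaCAGCTGttttcagccgca
mRpL24: ttcagttctcaaCAGCTGattgcaagccgc
mRpS2: aacactacccacCAGCTGtttaccaaaatc
mRpL47: ttgttattgcttCAGCTGttttgttcggtc
Their centres lie at -25, 13, 23, -8 and 21 bp from the start, in this order. The IDR summits of the same genes were 100, 748, 60, 78 and 96 bp from the nearest CAGCTG. The summit and these letters thus did not coincide at any of them. The promoters of mRpL24 and mRpS2 each hold another copy, farther upstream and not shown. At mRpL24 the 60 bp is the distance to that other copy, and the copy shown lies farther from the summit. At mRpS2 the 78 bp is the distance to the copy shown.

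At the pooled summits of the 46 unbound members, CAGCTG was within 50 bp in 8 cases (17.4%), against 7.21% of 14097 pooled promoter summits, and TATCGATA in 4 (8.70% against 2.33%). GGAACG was at 0 of the 46 (4.59% of the pooled promoter summits). In the promoters, TATCGATA was present in 15 of 73 members (20.5%) and 9.36% of all genes, and GGTCACAC in 8 (11.0%) and 7.70%. GGAACG was present in 3 (4.11%) and 7.26%.

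Few other genes of mitochondrial gene expression were bound, in lists too short to set them apart from the 16.0% of all genes. Neither tko nor bonsai, which encode mitochondrial ribosomal proteins under other symbols, had an IDR summit, and their pooled signals were 35.5 and 86.8. Of 11 genes of mitochondrial translation, 1 was bound, Lrpprc2, with 79.6 in replicate 1, 84.9 in replicate 2 and 166 after pooling. Unbound genes there included bsf (pooled signal 74.5) and mEFTu1 (72.6), an elongation factor gene. Of 11 genes of mitochondrial DNA replication and transcription, 1 was bound, mtSSB, which encodes the single-stranded DNA binding protein, with 143 in replicate 1, 70.0 in replicate 2 and 186 after pooling. The transcription termination factor gene mTTF (93.3) and the RNA polymerase gene PolrMT (84.1) were the highest unbound ones. None of 15 mitochondrial aminoacyl-tRNA synthetase genes was bound (Wilson interval 0 to 20.4%), the highest being ArgRS-m (117) and LeuRS-m (105). The Wilson interval of each list of 11 was 1.62 to 37.7%, and like that of the synthetases it includes the share of all genes.

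Of the genes of the cytoplasmic ribosome, 77 of 92 were bound (83.7%, Wilson interval 74.8 to 89.9%). This interval does not overlap that of the 73 mitochondrial genes (11.8 to 29.7%). The share of all protein-coding genes, 16.0%, lies inside the mitochondrial interval and below the cytoplasmic one. The summit was nearer to another gene at 11 of 14 bound mitochondrial genes (78.6%), beside 3 of 77 cytoplasmic ones (3.90%). Among all 2225 bound protein-coding genes the share was 27.0%, between both groups. Another protein-coding start lay within 1 kb of the summit at all 14 and at 49 of the 77 (63.6%), beside 55.3% of all bound genes. Without a head-to-head neighbour 0 of 15 mitochondrial genes were bound, beside 29 of 37 cytoplasmic ones (78.4%) and 11.0% of all such genes. The 11.0% lies inside the mitochondrial interval of 0 to 20.4%. The median pooled signal was 84.1 at the 60 listed mitochondrial genes and 339 at the 89 listed cytoplasmic ones.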

How the data were processed

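Chromatin from 0 to 24 h embryos was sonicated to 200 to 800 bp, per the labels' protocols. The authors deposited 4 region lists on dm6, of IDR peaks, of the pooled replicates and of each replicate, and both replicates share 1 control. The signal used is the deposited region score of each list, and the deposited lists also hold a −log10 q-value, which was not used for any result. No source used here names the aligner, the peak caller, their versions or the threshold of the IDR step. Depth is unknown, and signals are ranked within a list. Where the signals of both replicates are set side by side, no correction for depth was made.

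Regions on Y (3 pooled, 2 and 1 in the replicates) were left out. Summits were joined to starts of Ensembl release 115 genes (BDGP6.54) within 1 kb. A head-to-head neighbour is a protein-coding gene on the opposite strand with a start at most 1 kb upstream. Replicate summits were matched to IDR summits within 200 bp. Sequences came from the RefSeq Release 6 genome, whose arm lengths exceed every region end. Wilson intervals cover counting error only, and neighbouring genes that share a peak are not independent. All bound members were named, with the unbound members of highest and lowest pooled signal. The members, lists and motifs were chosen with earlier results of these data known. The joins and motif search were tested on simulated data. Alternatives changed the start distance, starts per gene, peak set, windows and replicate. Python 3.11.15, pandas 2.3.3, numpy 2.4.6 and scipy 1.17.1 were used.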

Additional observations from a re-analysis of the deposited data

How the results depend on the processing

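The count of 14 bound members (16.0% of all genes) was 10 with a start distance of 250 bp (12%), 13 with 500 bp (13.9%), 16 with 2 kb (19.2%), 14 with 1 start per gene (14.5%) and 10 where the called region had to cover a start (10.7%). It was 5 when each summit was given to its nearest protein-coding start alone (12.1% of all genes) and 9 with the 1443 IDR peaks of highest signal (8.26%). From the 2886 highest regions of a single replicate it was 13 to 18 (15.3 to 16.2%). With the list of a single replicate, the pooled count of 60 (63.2% of all genes) became 60 to 64 (60.9 to 64.2%). The count of 11 summits nearer to another gene became 10 to 11 with a single replicate (chosen after seeing the data). GGAACG was at 2 summits within 100 bp and 1 within 25 bp. The following were also chosen after seeing the data. With starts within 300 bp, 33 members were head to head (18.4% of all genes), and with 500 bp, 53 were (27.4% of all genes). In 150-base promoters 38 members held CAGCTG (12% of all genes). No paired analysis was possible because the 2 replicates form 1 group. Depth is unknown and limits what a missing region can show.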
